A study of Gallus gallus with 23 samples.

Results

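The genes described here encode the subunits of the 5 oxidative phosphorylation complexes, with cytochrome c and assembly factors of complex I. Every spot was taken whose gene symbol in the array annotation begins with NDUF, SDHA to SDHD, UQCR, COX4 to COX8, ATP5 or CYCS. This symbol rule reads no measured values, but the members were chosen with earlier results of these data known, so their medians are a description. The rule found 67 spots of 45 genes, among 10601 spots with a gene name, 6428 named genes and 19200 spots in all. Complex I contributed 19 genes, complex II 2, complex III 6, complex IV 5 and complex V 10. CYCS and the complex I assembly factors NDUFAF1 and NDUFAF2 made up the rest.

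The study measured liver RNA of 23 Ross x Cobb broiler cockerels, meat-type male chickens that received a minipump under the skin at 29 days of age and were sampled after 6 days of hormone delivery at 1.0 microliter per hour. The VC group (6 birds) received the vehicle, a mixture of DMSO and propylene glycol that every pump held. The CS group (6 birds) received corticosterone, the main avian glucocorticoid, at 600 micrograms per kg per day, the T3 group (6 birds) received triiodothyronine, the active thyroid hormone, at 192 micrograms per kg per day, and the CS+T3 group (5 birds) received both. Birds came from 72 housed 3 to a pen, and the labels do not give the pen or room of a bird. Each bird's RNA was hybridised on 1 array of spotted chicken cDNA clones against a pool of RNA from 6 control birds, and whether these were the VC birds is not stated. Each value is therefore a log2 ratio to that pool, and p-values measure the spread between birds measured once each.

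In the inner mitochondrial membrane, complexes I and II pass electrons from NADH and succinate to ubiquinone, complex III passes them to cytochrome c, and complex IV passes them to oxygen. Complexes I, III and IV pump protons, and complex V, the ATP synthase, uses the proton gradient to make ATP. Thyroid hormone is known for raising oxygen use and mitochondrial capacity in liver, and glucocorticoids shift liver metabolism toward gluconeogenesis.

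The values of 4 arrays (VC replicate 4, CS replicate 3, T3 replicate 3 and CS+T3 replicate 1) stood against the wrong spots over most of the array. Their correlation across spots with the other arrays was -0.05 to 0.018 in place and 0.249 to 0.432 after a shift along the printing order, against 0.313 to 0.628 for the 17 arrays left as they were. These 4 were realigned, as were parts of T3 replicate 1 and CS+T3 replicate 2, and spots that could not be placed were left missing. T3 replicate 1 stayed the poorest match of all arrays, with a correlation of 0.21 after realignment. It also had the most blank spots (53.5%) and the widest spread (SD 0.56). Of 8 tested complex V genes it was the highest T3 bird for 2 and the lowest for 3. Arrays held 8925 to 13721 values, and the realigned arrays gave 6348 to 10816. Testing required 3 or more values in each group. This left 36 of the 45 genes, which were fitted together with all other features that met it, 9244 in all.

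The labels name the dyes but not the numerator of the ratio, so the bird was taken as the numerator, with base 2 assumed, and a positive value is read as more RNA in the bird. The direction is likely, not settled, and every sign would turn round if the pool were the numerator. It rests on THRSP, a lipogenic gene induced by thyroid hormone, which was 1.65 higher in CS+T3 than in CS (SE 0.317, adjusted p = 0.00823) and 1.06 lower in CS than in T3 on the log2 scale (difference -1.06, SE 0.304, adjusted p = 0.0357). The T3 against VC difference of THRSP was 0.86 (SE 0.289, adjusted p = 0.96). FKBP5, a glucocorticoid-induced gene, differed by 0.27 between CS and VC (SE 0.122, adjusted p = 0.22), which did not pass. The plan for this check also named DIO1 as a target of T3 and TAT as a target of CS, and their values are not given here. No pair of arrays among 253 had a correlation under -0.3.

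Most of the genes that fell in CS birds relative to T3 birds encode the ATP synthase. Of these, ATP5H, ATP5B and ATP5F1AZ rose in CS+T3 birds relative to the same CS birds, which both comparisons share. Of 8 tested complex V genes, 5 fell in CS against T3, beside 5.08% of all features, with a median log2 difference of -0.53 beside 0.05 over all features. Only ATP5H of the 5 was still called without the 4 misplaced arrays, and in ATP5B, ATP5F1AZ and ATP5G1 the change lay in 1 of several spots. Against CS, all 8 were above 0 in CS+T3 and 3 of them passed the test, beside 2.24% of all features, with a median of 0.57 beside -0.04. Of these 3 too, only ATP5H was still called without the 4 misplaced arrays. None was called without all 6 realigned arrays or with values as deposited. Complexes I, III and IV had medians of -0.08, -0.16 and 0.02 in the first of these comparisons and 0.20, 0.08 and -0.07 in the second. Of 5 complex III genes, 1 fell in the first and 2 rose in the second. COX7C of complex IV went the other way, being highest in CS birds.

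Each bird was averaged over the complex V genes with a value in it, up to 8, and set against the VC mean. The 6 CS birds lay between -0.45 and -0.08, with a median of -0.32. The VC birds lay between -0.16 and 0.21, the T3 birds between -0.15 and 0.31 and the CS+T3 birds between 0.14 and 0.51. No CS bird reached the CS+T3 range, whereas VC and T3 birds overlapped each other and both other groups. The lowest CS bird, replicate 3, had values for 6 of the 8 genes, and the highest CS+T3 bird, replicate 1, for 7. VC replicate 4 and T3 replicate 3 had 5, so the birds are compared over partly different genes. Gene averages also used whichever spots had a value, so a gene can rest on different spots in different birds. The complex IV means overlapped in all 4 groups, between -0.36 and 0.37. Over the tested genes with a value in each bird, up to 36, the CS+T3 birds ranged from 0.15 to 0.24. They lay above the highest VC bird at 0.11, whereas the T3 birds, from 0.03 to 0.17, overlapped them.

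**Figure D1:**
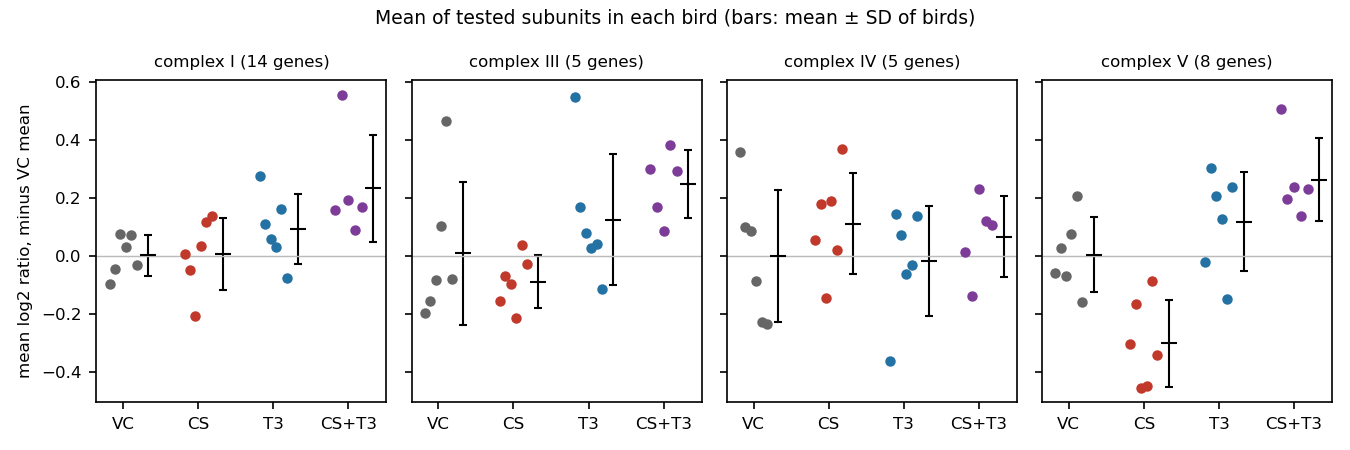
Each point is 1 bird, by group (x axis), and bars give the mean and SD of birds. The y axis is the mean log2 ratio over tested genes of complex I, III, IV or V, after subtraction of each gene's VC mean. Genes without a value in a bird were left out of its mean. In complex V the CS birds lie between -0.45 and -0.08 and the CS+T3 birds between 0.14 and 0.51, while the complex IV means overlap in all groups.

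The question put by the comparison of CS with VC was what corticosterone did alone. COX7C rose and ATP5H fell among the 36 genes, and the other 34 did not pass an adjusted p of 0.05 (limma, Benjamini-Hochberg over all features). These 2 of 36 genes (5.56%) stood beside a background of 4.07% of all features called (0.984% higher and 3.08% lower), a share near the background. One gene, COX7C, had groups that did not overlap, beside 4.45% of all features. With quantile normalization or with all arrays set to equal spread, only COX7C was called (2.78% of the genes), beside 1.6% and 2.49% of all features. Weighting arrays by their quality gave 4 calls (11.1%), beside 8.65% of all features, again a share near the background.

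Against T3, CS birds had 7 genes lower and 1 higher, which is 8 of 36 (22.2%) beside 7.59% of all features (5.08% lower and 2.51% higher). The 7 were ATP5H, ATP5B, ATP5G1, ATP5C1 and ATP5F1AZ of complex V, UQCRHL of complex III and CYCS, and COX7C was the 1 that rose. In 4 of the 36, namely ATP5H, ATP5C1, CYCS and COX7C, the groups did not overlap, beside 4.8% of all features. The count changed with the arrays kept, the groups fitted and the scaling. Without the 4 misplaced arrays 1 gene was called, ATP5H, which is 2.78% of the genes beside 3.34% of all features. The same single call was left without all 6 realigned arrays, beside 2.94% of all features. Fitting the CS and T3 arrays alone gave 1 call, quantile normalization gave 2 lower and 0 higher, and equal spread gave 3 lower and 0 higher. The share of all features called was 2.91%, 2.42% and 3.12% in these fits.

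Addition of T3 to CS gave 6 higher genes and 0 lower, which is 6 of 36 (16.7%) beside 2.63% of all features (2.24% higher and 0.389% lower). They were ATP5H, ATP5F1AZ and ATP5B of complex V, UQCRHL and UQCRQ of complex III and NDUFB6 of complex I. Groups did not overlap in 9 of 36 genes, beside 5.26% of all features. Without the 4 misplaced arrays 2 genes were called, ATP5H and UQCRQ (5.56% of the genes beside 0.595% of all features). UQCRQ was the 1 gene left without all 6 realigned arrays (2.78% beside 0.239%), and with values as deposited there were 0 calls, beside 0.0529% of all features. In the realigned values 17 of the 36 genes had an unadjusted p under 0.05, beside 21.1% of features.

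T3 alone against VC gave 0 calls among the 36 genes in limma, and 0.0% of all 9244 features were called. At an unadjusted p under 0.05 there were 4 of the 36 genes, beside 4.74% of all features. The combined treatment against VC also gave 0 calls, beside 0.0541% of all features. At an unadjusted p under 0.05 there were 9 genes, beside 4.47% of features. There the median difference of the 36 genes was 0.18 beside -0.01 over all features, and 4 genes (NDUFB6, NDUFC2, NDUFS1 and UQCRQ) had groups that did not overlap, beside 1.99% of all features. CS+T3 against T3 gave 0 calls, beside 0.0433% of features, and 6 genes at an unadjusted p under 0.05, beside 4.21%. Only NDUFC2 had groups that did not overlap there, beside 1.41% of features. The interaction, which asks whether CS and T3 together differ from the sum of each alone, gave 0 calls beside 0.0865% of features, with a lowest adjusted p of 0.16. At an unadjusted p under 0.05 it had 10 genes, beside 9.78% of features. These comparisons share groups, so their values are not independent of each other.

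**Figure D2:**
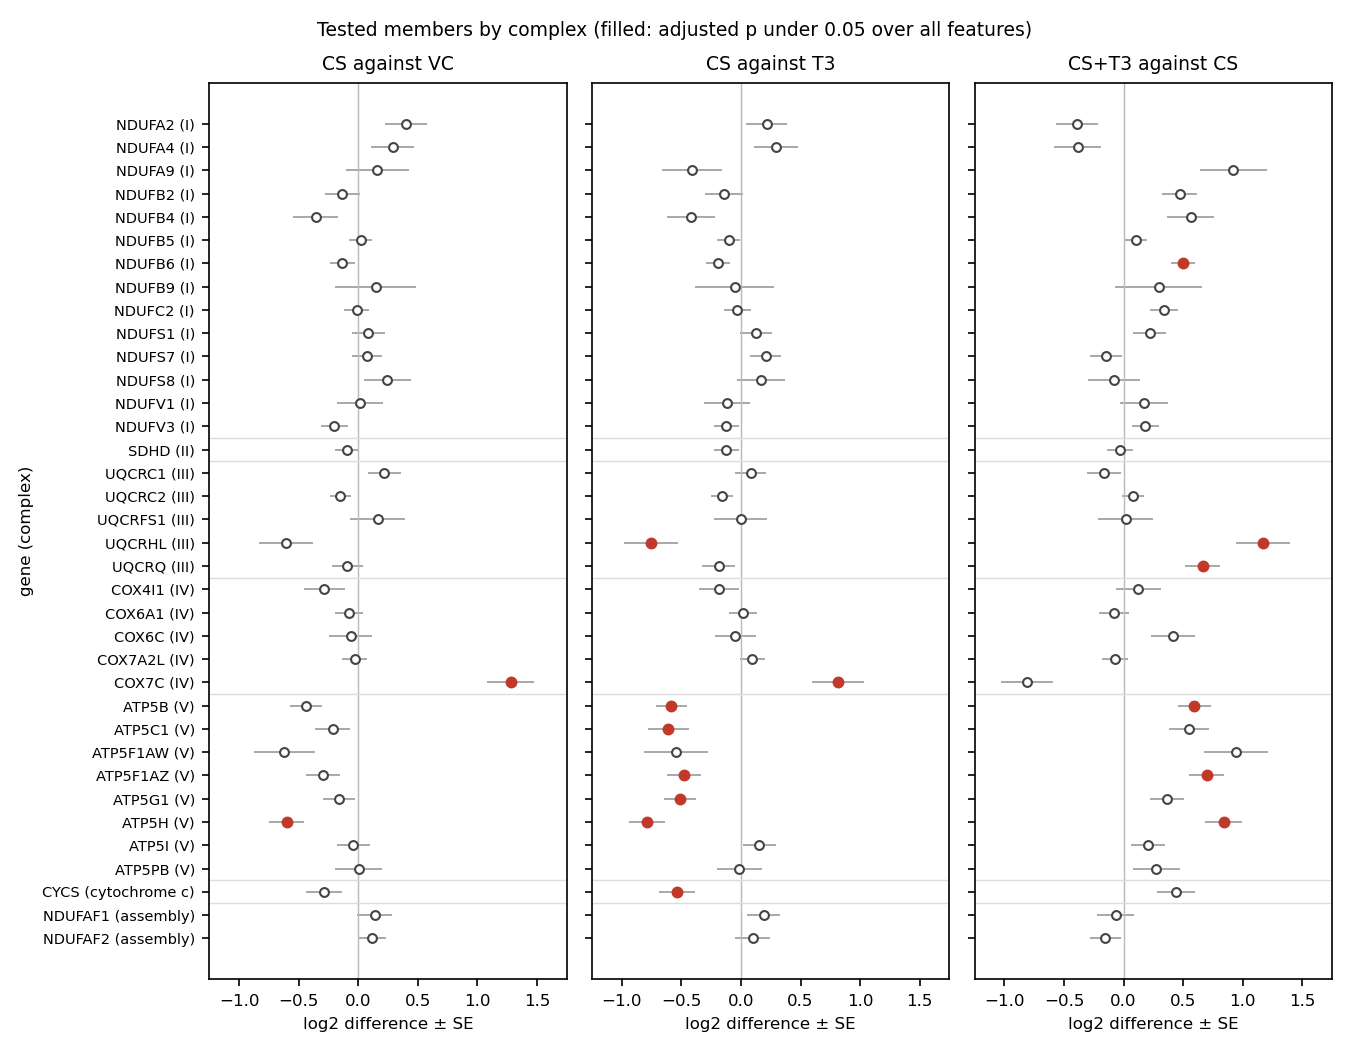
Log2 difference (x axis) with its standard error for each of the 36 tested genes (y axis, with its complex) in CS against VC, CS against T3 and CS+T3 against CS; filled points passed an adjusted p of 0.05 over all features. The filled points of complex V lie left of 0 in the middle panel and right of 0 in the right panel, and COX7C lies at 1.28 in the left panel.

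Complex I takes electrons from NADH. Of its 14 tested genes only NDUFB6, an accessory subunit of the membrane arm, passed a test. In CS+T3 birds NDUFB6 read 0.52, 0.10, 0.08, 0.21 and 0.11, and in CS birds it read -0.29, -0.15, -0.32, -0.22 and -0.51. All CS+T3 birds were above 0 and all CS birds below it. The difference was 0.50 (SE 0.103, adjusted p = 0.012, limma), a 1.41-fold change.

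VC birds read -0.31, -0.28, -0.05, -0.03 and -0.13 for NDUFB6, and the 6 T3 birds ranged from -0.28 to 0.14 with a median of -0.12. CS+T3 birds thus lay above every VC bird, but this difference of 0.36 (SE 0.103) did not pass (adjusted p = 0.457).

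The other subunits of complex I did not move one way. NDUFA9, an accessory subunit of the arm that joins the membrane part to the matrix part, had one of the widest spreads: its CS+T3 values were 1.90, 0.91, 0.56 and 0.89, beside 1.00 for the highest CS bird. It differed by 0.92 from CS to CS+T3, with a standard error of 0.280 and an adjusted p of 0.0766. NDUFB4 (0.56, SE 0.201) and NDUFB2 (0.47, SE 0.147), accessory subunits of the membrane arm, had adjusted p of 0.118 and 0.0866. NDUFA2 (-0.39, SE 0.177) and NDUFA4 (-0.38, SE 0.198) differed in the other direction and did not pass. NDUFA4 was grouped here by its symbol, although its protein is now assigned to complex IV in mammals.

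None of the core subunits of complex I, which carry the flavin and the iron-sulfur clusters, passed. Between CS+T3 and CS, NDUFS1 differed by 0.22 (SE 0.142), NDUFV1 by 0.17 (SE 0.204), NDUFS7 by -0.15 (SE 0.133) and NDUFS8 by -0.08 (SE 0.216), with adjusted p from 0.381 to 0.857. The 3 spots of NDUFV1 ran from -0.30 to 0.50. Among accessory subunits, NDUFB5 (0.10, SE 0.096) and NDUFV3 (0.18, SE 0.112) also did not pass. The 2 assembly factors, NDUFAF1 (-0.07, SE 0.155) and NDUFAF2 (-0.15, SE 0.132), also did not pass.

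Complex II, which is succinate dehydrogenase, was represented in the tests by SDHD, one of its membrane anchors. SDHD averaged 0.08 ± 0.12 (SD, n = 6) in VC, -0.01 ± 0.26 (n = 6) in CS, 0.11 ± 0.09 (n = 5) in T3 and -0.04 ± 0.12 (n = 5) in CS+T3. CS birds ranged from -0.46 to 0.27 with a median of -0.01, and VC birds from -0.0039 to 0.33 with a median of 0.04. T3 birds read 0.05, 0.15, -0.006, 0.23 and 0.13, and CS+T3 birds -0.05, -0.22, 0.03, 0.09 and -0.07. All groups overlapped.

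Its average hides disagreement between spots. One spot of SDHD was lower in CS than in T3 (-0.58, SE 0.144, adjusted p = 0.0172 over single spots), another gave 0.07 (SE 0.103, adjusted p = 0.72) and the remaining tested spot 0.52 (SE 0.207, adjusted p = 0.126). A further spot had too few values to be tested. It carries the same clone as the spot at 0.52 but averaged -0.04 in CS (n = 4) and 0.18 in T3 (n = 4). The gene value therefore cannot be read as that of 1 transcript.

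Complex III hands electrons to cytochrome c. Its small subunits UQCRHL and UQCRQ rose when T3 was added to CS, and its core proteins did not pass. UQCRHL, named as a hinge protein that contacts the cytochrome c site, read -0.99, -0.87, -1.26, -0.33 and -0.52 in CS and 0.74, 0.0014, 0.05, 0.65 and 0.45 in CS+T3. Every CS+T3 bird was above every CS bird. The difference was 1.17 (SE 0.226, adjusted p = 0.00852), or 2.25-fold.

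In T3 birds UQCRHL read 0.39, -0.0007, 0.08, -0.35 and -0.29, overlapping CS at 1 bird, and CS was 0.76 lower (difference -0.76, SE 0.226, adjusted p = 0.0458). The VC birds read -0.53, -0.38, -0.40, 0.71 and -0.33, so VC replicate 5 stood apart from the other VC birds. The T3 comparison is at the edge of the threshold, since it was lost in 15 of 23 fits that left out 1 array, among them every fit without a CS array other than replicate 5.

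UQCRQ, a small subunit near the ubiquinone site, read 0.21, 0.25, 0.63 and 0.48 in CS+T3 birds and -0.10, -0.40, -0.33, -0.01 and -0.51 in CS birds. VC birds ranged from -0.33 to 0.04 with a median of -0.21, and T3 birds read 0.33, 0.16, -0.26, -0.35 and -0.30. CS+T3 birds were above all CS and VC birds, and T3 birds overlapped them at 1 bird. The difference to CS was 0.66 (SE 0.146, adjusted p = 0.0188) and that to VC 0.57 (SE 0.140, adjusted p = 0.282).

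For the core proteins UQCRC1 and UQCRC2 and the Rieske iron-sulfur protein UQCRFS1, CS+T3 differed from CS by -0.16 (SE 0.139), 0.08 (SE 0.092) and 0.02 (SE 0.232). Their adjusted p ranged from 0.51 to 0.976.

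Cytochrome c itself, encoded by CYCS, carries electrons between complexes III and IV. CS birds read -0.23, -0.18, -0.38, -0.26 and -0.32, and T3 birds 0.44, 0.45, 0.58, -0.04 and -0.12. All CS birds were below all T3 birds, by 0.54 on average (difference -0.54, SE 0.154, adjusted p = 0.0388). VC birds read -0.29, 0.23, 0.30, 0.09 and -0.25 and CS+T3 birds -0.06, -0.06, 0.45 and 0.34. CS+T3 birds were all above the CS birds, but the difference of 0.44 (SE 0.163) did not pass (adjusted p = 0.133). A second CYCS spot gave values on 4 arrays only. It lowered the averages of CS+T3 replicates 2 and 3 (0.36 and 0.12 on the other spot alone) and of T3 replicate 2 (0.92 alone). The average of CS replicate 4 was raised by it (-0.74 alone). The other spot alone was 0.70 lower in CS than in T3 (difference -0.70, SE 0.179, adjusted p = 0.0203 over single spots), and it did not pass in CS+T3 against CS. The call of the gene average was kept in 5 of 15 alternatives and in 17 of 23 fits without 1 array.

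Complex IV reduces oxygen to water. COX7C, one of its small nuclear-encoded subunits, was the only tested gene called higher in CS birds. CS birds read 1.05, 1.20, 0.79, 1.11 and 1.35. VC birds ranged from -0.84 to 0.39 with a median of -0.17, T3 birds read 0.58, 0.03, 0.75 and -0.20, and CS+T3 birds 0.23, -0.03, 0.72 and 0.24. All 5 measured CS birds were above every bird of the other 3 groups.

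COX7C was 1.28 higher in CS than in VC (SE 0.198, adjusted p = 0.00153), or 2.43-fold, and 0.81 higher than in T3 (SE 0.220, adjusted p = 0.0296). The first call was kept in 15 of 15 alternatives and in 23 of 23 fits without 1 array, and the call against T3 in 9 of 15 and 19 of 23. In CS+T3 birds COX7C differed from CS by -0.81 (SE 0.220, adjusted p = 0.0538), which missed the threshold. The same spot passed when spots were fitted singly (adjusted p = 0.0489). COX7C has 1 spot on the array, so no other clone was compared.

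The other 4 tested subunits of complex IV did not pass between CS and VC. COX4I1, an isoform of the largest nuclear-encoded subunit, differed by -0.28 (SE 0.175, adjusted p = 0.381), COX6C by -0.06 (SE 0.182), COX6A1 by -0.08 (SE 0.121) and COX7A2L, which is known in mammals as a supercomplex assembly factor, by -0.03 (SE 0.104), with single spots from -0.24 to 0.09. The CS+T3 against CS difference of COX6C was 0.42 (SE 0.182) and did not pass, at an adjusted p of 0.193.

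Complex V was the group in which most genes passed. ATP5H encodes subunit d of the peripheral stalk, which holds the catalytic head still. CS birds read -0.79, -0.48, -0.94, -0.43 and -0.78. CS+T3 birds read 0.47, 0.13, -0.04, 0.07 and 0.16, T3 birds ranged from -0.34 to 0.59 with a median of -0.0046, and VC birds from -0.46 to 0.08 with a median of 0.02. The CS birds were below every T3 and CS+T3 bird, and the lowest VC bird reached into their range.

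ATP5H was lower in CS than in VC (-0.60, SE 0.148, adjusted p = 0.0215), lower in CS than in T3 (-0.79, SE 0.148, adjusted p = 0.00297) and higher in CS+T3 than in CS (0.84, SE 0.155, adjusted p = 0.00609). The last is a 1.79-fold difference. The CS against VC call was lost without VC replicate 2 or 4 or CS replicate 1, 4 or 6, and without the 4 misplaced arrays (-0.57, adjusted p = 0.0674). It was also lost with values as deposited (-0.31, adjusted p = 0.505), with block medians removed (-0.51, adjusted p = 0.0514), and with quantile normalization or equal spread. The CS against T3 call was kept in 14 of 15 alternatives, the exception being the values as deposited (-0.60, adjusted p = 0.1).

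ATP5C1 encodes the gamma subunit, the rotating shaft of the head. CS birds read -0.06, -0.24, -0.56, -0.12 and -0.59, and the 3 T3 birds with a value read 0.29, 0.62 and -0.0056. CS lay below T3 in every bird, by 0.61 on average (difference -0.61, SE 0.171, adjusted p = 0.0402). CS+T3 birds read 0.55, 0.16 and 0.0033, and VC birds -0.22, -0.17, -0.12, 0.20 and -0.17. CS+T3 differed from CS by 0.55 (SE 0.171, adjusted p = 0.0943). The T3 and CS+T3 groups each held only 3 values. The CS against T3 call was lost in 9 of 14 alternatives, and the cause was not tested.

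**Figure D3:**
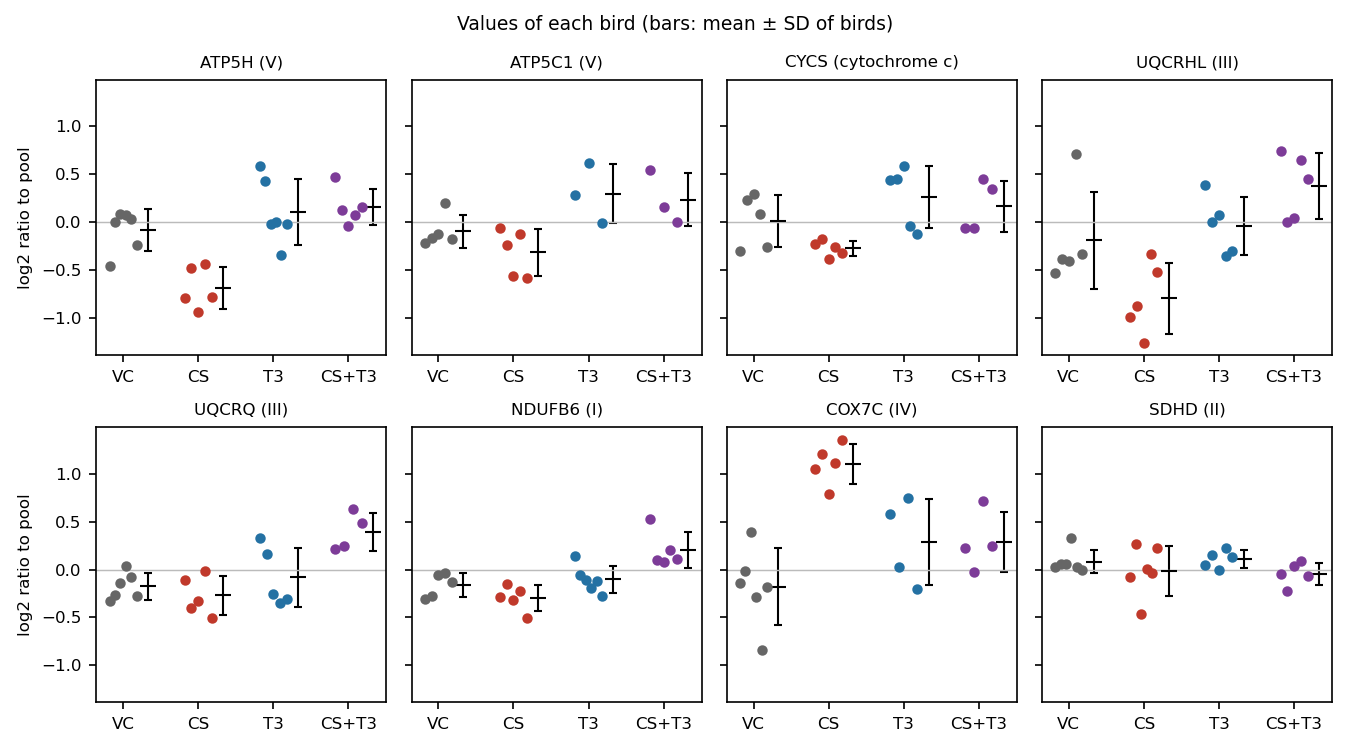
Log2 ratio to the pool (y axis) of each bird by group (x axis) for ATP5H, ATP5C1, CYCS, UQCRHL, UQCRQ, NDUFB6, COX7C and SDHD; bars give the mean and SD. All COX7C values of CS birds lie above those of the other groups, from 0.79 to 1.35, and the ATP5H values of CS birds lie at or below -0.43.

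ATP5B, ATP5F1AZ and ATP5G1 passed as gene averages, but in each the change lay in 1 spot. ATP5B encodes the catalytic beta subunit, ATP5F1AZ the alpha subunit that alternates with it in the head, and ATP5G1 a subunit of the rotating membrane ring. Averaged over spots, ATP5B was 0.58 lower in CS than in T3 (difference -0.58, SE 0.133, adjusted p = 0.00901), ATP5G1 0.51 lower (-0.51, SE 0.135, adjusted p = 0.0224) and ATP5F1AZ 0.48 lower (-0.48, SE 0.144, adjusted p = 0.0452). The ATP5F1AZ call was kept in 7 of 15 alternatives and in 8 of 23 fits without 1 array. Against CS, CS+T3 was higher by 0.59 for ATP5B (SE 0.139, adjusted p = 0.0235) and by 0.70 for ATP5F1AZ (SE 0.144, adjusted p = 0.012), and the 0.37 of ATP5G1 (SE 0.141, adjusted p = 0.142) did not pass.

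The gene averages by bird were as follows, each over the spots with a value in that bird. In CS+T3 replicate 1, ATP5B had a value only on the spot without the change and ATP5F1AZ only on the spot with it. ATP5B ranged from -0.62 to -0.05 in CS with a median of -0.36, from -0.24 to 0.30 in VC with a median of 0.13 and from -0.31 to 0.64 in T3 with a median of 0.28, and CS+T3 birds read 0.18, 0.38, 0.26, 0.13 and 0.30. All CS+T3 birds were above all CS birds. ATP5F1AZ ranged from -0.94 to 0.02 in CS with a median of -0.34. It read -0.23, 0.04, -0.26, 0.22 and -0.21 in VC, -0.10, 0.07, 0.19, -0.06 and 0.36 in T3, and 0.69, 0.12, 0.21, 0.25 and 0.29 in CS+T3. Again CS and CS+T3 did not overlap.

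ATP5G1 ranged from -0.40 to 0.30 in CS with a median of -0.21, from -0.12 to 0.11 in VC with a median of 0.04 and from -0.06 to 0.82 in T3 with a median of 0.31. CS+T3 birds read 0.60, 0.0043, 0.17, 0.05 and 0.25, and all 4 groups overlapped.

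Taken spot by spot, 51 spots of these genes could be tested among 11237 spots. In CS against T3, 8 were lower and 1 higher, beside 7.88% of all spots, and in CS+T3 against CS 7 were higher and 1 lower, beside 3.24%. One spot of ATP5B was lower in CS than in T3 by 1.19 (difference -1.19, SE 0.249, adjusted p = 0.0059), and its other spot gave 0.02 (SE 0.114, adjusted p = 0.939). One spot of ATP5F1AZ gave -0.90 (SE 0.225, adjusted p = 0.0172) and the other -0.02 (SE 0.136). Of the 3 spots of ATP5G1, one gave -1.01 (SE 0.217, adjusted p = 0.00704) and the others -0.21 (SE 0.142) and -0.02 (SE 0.197).

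Of the spots called in CS against T3, those of ATP5C1, SDHD and CYCS were not called in CS+T3 against CS. Those of ATP5B, ATP5F1AZ and ATP5G1 also differed between CS+T3 and CS, but both comparisons use the same CS birds and are not independent. The differences were 1.12 for ATP5B (SE 0.279, adjusted p = 0.0299), 1.09 for ATP5F1AZ (SE 0.225, adjusted p = 0.0118) and 1.18 for ATP5G1 (SE 0.226, adjusted p = 0.00824). The remaining spots of these genes lay between -0.08 and 0.13. Over all arrays, with the groups pooled, the spots that moved had SDs of 0.657, 0.573 and 0.580, against 0.188 to 0.275 for the others. These SDs include the group differences by which the spots were picked, so a wider spread was partly fixed in advance. The spots are different cDNA clones of each gene, and which clone reports the transcript was not tested. Those that moved were singled out after their values were seen.

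By bird, the ATP5B spot that moved read -0.48, -0.92, -0.82, -1.40, -0.0076 and -0.23 in CS replicates 1 to 6, and 0.78, 0.30, 0.38 and 0.45 in the CS+T3 birds with a value. The ATP5G1 spot read -0.78, -0.18, -0.88, 0.0029 and -0.74 in CS and 0.92, 0.61, 0.56, 0.27 and 0.96 in CS+T3. The ATP5F1AZ spot read -0.31, -0.24, -0.45, -1.37, 0.21 and -0.80 in CS and 0.69, 0.26, 0.55, 0.82 and 0.67 in CS+T3. In all 3, every CS+T3 bird was above every CS bird, and CS replicate 5 was the highest CS bird. These spots had been picked for their differences in the same birds, so the separation was partly fixed in advance. Among all features, with spots averaged per gene, groups did not overlap in 5.26%, and the share over single spots was not counted.

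**Figure D4:**
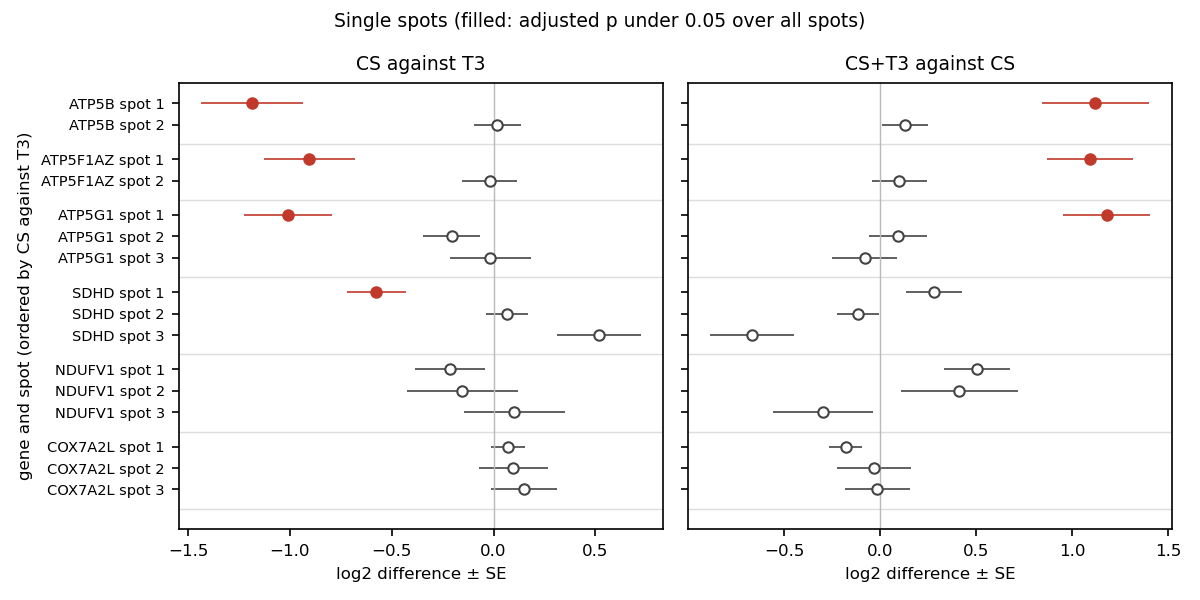
Log2 difference (x axis) with its standard error for single spots of 6 genes measured by 2 or 3 tested spots (y axis, ordered within each gene by the CS against T3 value); filled points passed an adjusted p of 0.05 over all spots. One spot each of ATP5B, ATP5F1AZ and ATP5G1 lies between -1.19 and -0.90 on the left and between 1.09 and 1.18 on the right, and their other spots lie near 0.

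ATP5F1AW is listed as a separate gene, the copy of the alpha subunit on the W chromosome. Male chickens carry no W chromosome, so in these cockerels the spot cannot be assigned to that copy, and signal of the closely related ATP5F1AZ transcript cannot be told apart on it. CS birds read from -1.03 to -0.06, and CS+T3 birds 0.53, -0.20, 0.19, 0.44 and 0.51. Its difference was 0.94 in CS+T3 against CS (SE 0.267, adjusted p = 0.0574) and -0.55 in CS against T3 (SE 0.267, adjusted p = 0.209).

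ATP5PB, the b subunit of the peripheral stalk, and ATP5I, a small membrane subunit, did not pass. CS differed from T3 by -0.02 for ATP5PB (SE 0.188) and by 0.15 for ATP5I (SE 0.138), and CS+T3 from CS by 0.27 (SE 0.197) and 0.21 (SE 0.144).

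The median of complex V kept its sign in all 38 alternative fits, counting those without 1 array. It ranged from -0.60 to -0.32 in CS against T3 and from 0.45 to 0.70 in CS+T3 against CS. Some of these fits could not move the median of complex V. Leaving out an array of a group not compared, or changing only the estimate of spread, gives the same difference. In the interaction its median was 0.43, with 8 of 8 genes above 0 and 0 passing. Because ATP5F1AW and ATP5F1AZ may both report 1 transcript, the medians were also taken without ATP5F1AW, a choice made after seeing the data. They were then -0.51 in CS against T3, 0.55 in CS+T3 against CS and 0.40 in the interaction, over 7 genes.

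A further 9 genes could not be tested because a group held fewer than 3 values. They were NDUFA5, NDUFA11, NDUFB10, NDUFS3 and NDUFV2 of complex I, SDHA of complex II, UQCRB of complex III, and ATP5O and ATP5J2 of complex V. NDUFS3, a core subunit, averaged -0.04 ± 0.14 (SD, n = 5) in VC, 0.06 ± 0.15 (n = 5) in T3 and 0.01 ± 0.05 (n = 5) in CS+T3, with 0.17 and 0.05 in the CS birds that gave a value. ATP5O, the stalk subunit that contacts the head, read 0.0083, 0.05, -0.06 and -0.13 in CS and 0.0099, 0.30, -0.04 and -0.07 in CS+T3, so these groups overlapped. For NDUFA11, CS birds read -0.37, -0.54, -0.37 and -0.18 and CS+T3 birds -0.06, -0.16 and -0.19. UQCRB had 1 value on all arrays, 1.31 in a VC bird.

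Among 20 other tested genes for respiratory chain components, assembly factors and carriers, 1 was higher and 1 lower in CS than in T3, which is 10% beside 7.59% of all features. SLC25A3, the phosphate carrier that supplies ATP synthase, was 0.51 lower (difference -0.51, SE 0.151, adjusted p = 0.0414), and FOXRED1, a complex I assembly factor, was 1.15 higher (SE 0.219, adjusted p = 0.00338). The adenine nucleotide carriers SLC25A5 (-0.40, SE 0.158, adjusted p = 0.114) and SLC25A6 (-0.56, SE 0.293, adjusted p = 0.243) did not pass. No gene of this list passed in CS+T3 against CS, beside 2.63% of all features, with a median of 0.06.

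Of 12 genes on the tricarboxylic acid cycle list, which includes cytosolic forms, only ACO1 passed in CS against T3 or in CS+T3 against CS. ACO1 encodes the cytosolic aconitase, which doubles as an iron regulatory protein. It was lower in CS than in T3 (-1.20, SE 0.209, adjusted p = 0.00201) and higher in CS+T3 than in CS (0.98, SE 0.222, adjusted p = 0.0221). None of 7 regulators of mitochondrial number passed in either comparison. PPARGC1A, a coactivator of mitochondrial biogenesis, differed by 0.38 between CS and T3 (SE 0.173, adjusted p = 0.175), and TFAM, which maintains mitochondrial DNA, by 0.01 (SE 0.127). Mitochondrial ribosomal proteins (29 tested) had a median of 0.13 in CS against T3 with 2 higher and 1 lower, and -0.05 in CS+T3 against CS with 0 passing. Cytosolic ribosomal proteins (44 tested) had medians of -0.20 with 4 lower and 0.22 with 2 higher in the same comparisons. In CS against T3, 8.33% of the cycle list was called, which is the cytosolic ACO1 alone, beside 7.59% of all features. The share was 10.3% for mitochondrial and 9.09% for cytosolic ribosomal proteins, all near that background. In CS+T3 against CS the shares were 8.33% (again ACO1 alone), 0.0% and 4.55% in the same order, beside 2.63%.

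Of 11 tested hepatocyte marker genes, 7 fell and 1 rose in CS against T3 (median -1.08) and 7 fell in CS against VC (median -1.05). In CS+T3 against CS 3 rose (median 0.66). Of all features, 7.59%, 4.07% and 2.63% were called in these comparisons. In CS+T3 against VC the markers and complex V had opposite signs, with medians of -0.30 and 0.26 and 0 genes passing in either. The marker mean of each bird lay between -1.35 and -0.43 in CS, between -0.08 and 0.08 in VC, between -0.58 and 0.22 in T3 and between -0.61 and -0.05 in CS+T3, all relative to VC. All 11 of the listed markers found on the array gave enough values. A ratio to a liver pool gives no absolute level, so the tissue label could be checked no further. Among birds of a group the order of the marker means and that of the complex V means matched in part. CS replicate 5 was highest in both (-0.43 and -0.08) and T3 replicate 5 lowest in both (-0.58 and -0.15). CS replicates 3 and 4 had equally low complex V means (-0.45) with marker means of -0.67 and -1.27, and CS+T3 replicate 2 the lowest marker mean of its group (-0.61) with a complex V mean of 0.20. CS replicate 3, a realigned array, had values for 8 of the 11 markers and 6 of the 8 complex V genes. CS replicate 4 had all of them, so the means of these birds are over partly different genes. Leukocyte markers (8 tested) had 3 lower in CS than in T3, beside 5.08% of all features. Their bird means ran from -0.40 to 0.04 in CS and from -0.0085 to 0.34 in T3. Of 5 erythrocyte markers, SLC4A1 was higher in CS than in T3 (0.34, SE 0.105, adjusted p = 0.05 after rounding), beside 2.51% of all features. Bird means of that list ran from -0.0026 to 0.48 in CS and from -0.25 to 0.39 in T3. The part of all these markers in the results for the respiratory genes was not tested. In whole liver fewer cells of a type and less RNA per cell cannot be told apart.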

How the data were processed

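The authors deposited 1 log ratio per spot and array in a series value table of 23 two-colour cDNA arrays. Per the labels, bird and pool RNA carried different Alexa Fluor dyes, with no dye swap. The log base (log2 was assumed for the deposited values), numerator, background correction, normalization and spot filter are not given in the sources used here. Gene symbols came from the platform annotation, and all 67 spots were matched by gene ID to RefSeq.

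Each array was compared with the mean of the others at lags of 0 to 40 spots, and 6 arrays were realigned. In 34 simulated runs a median of 99.7% of spots got the right lag, and 93.5% in the lowest run. These runs moved values of the 17 arrays left as they were by known lags. The 6 realigned arrays were not used, so the shares do not carry over to a poorer match such as T3 replicate 1, with a correlation of 0.21. Spots were averaged per gene, and unnamed spots kept apart. Features with at least 3 values per group were fitted in limma 3.58.1 (R 4.3.3) with 4 group means and Benjamini-Hochberg adjustment. Tested on simulated data of CS against T3 (9244 features), 48% of changes of 0.5 and 88% of changes of 1 were recovered. These were the highest shares among the pairwise comparisons, and the lowest were 39% and 83%, in T3 against VC. Recovery depends on how many features change, and the simulation planted the same number in every comparison, with independent noise. The shares are therefore not the power of the real comparisons. The number of arrays limits precision.

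Values by bird are given for genes passing in any of 7 comparisons and the gene with the largest test statistic in each complex. Members and lists were chosen with earlier results of these data known. Alternatives covered alignment, scaling, filters, array weights, pairing, single spots and each array left out.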

Additional observations from a re-analysis of the deposited data

Results flagged for a closer look

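Among 62 groups of values tested, 6 held 1 bird far from the others of its group by Dixon's criterion, and chance flags about 1 in 20 groups. UQCRHL was 0.71 in VC replicate 5, beside -0.53 to -0.33 in the other VC birds. ATP5C1 was 0.20 in the same bird, beside -0.22 to -0.12. NDUFB6 was 0.52 in CS+T3 replicate 1, beside 0.08 to 0.21. SDHD was 0.33 in VC replicate 4, beside -0.0039 to 0.06. The complex V mean of CS+T3 replicate 1 was 0.51, beside 0.14 to 0.24, and the complex I mean of CS+T3 replicate 2 was 0.56, beside 0.09 to 0.19. VC replicate 4, CS+T3 replicate 1 and part of CS+T3 replicate 2 were realigned arrays.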

How the results depend on the processing

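With values as deposited, the genes called were 1 in CS against VC, 2 in CS against T3 and 0 in CS+T3 against CS, and the median differences of the last pair of comparisons were 0.0038 and 0.12, against -0.11 and 0.21 after realignment, so the first turned direction. Of all features, 0.762%, 2.47% and 0.0529% were called with values as deposited, in the order of the counts. Without the 4 misplaced arrays the counts were 1, 1 and 2, beside 2.06%, 3.34% and 0.595% of all features. Without 6 they were 1 in CS against T3 and 1 in CS+T3 against CS, beside 2.94% and 0.239%. The median of CS+T3 against CS was then 0.0851, and the interaction median was 0.0796. Quantile normalization gave 1 in CS against VC and 2 in CS against T3, beside 1.6% and 2.42% of all features. Equal spread gave 1 and 3, beside 2.49% and 3.12%. Fitting only the groups compared gave 1 in CS against T3, beside 2.91%. Removing block medians gave 13 in CS+T3 against CS (36.1% of the genes), beside 7.23% of all features. Array weights gave 4 in CS against VC (11.1% beside 8.65%), a share near the background. They gave 3 in CS+T3 against VC (8.33% beside 0.325%) and 11 in CS+T3 against CS (30.6% beside 5.27%).

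Leaving out 1 array in turn gave 1 to 3 calls in CS against VC, 2 to 8 in CS against T3 (2 without CS replicate 6) and 4 to 9 in CS+T3 against CS (4 without CS+T3 replicate 5, 9 without CS replicate 5 or CS+T3 replicate 2). Over all 9244 features, calls in these comparisons ranged from 214 to 599, from 402 to 1091 and from 104 to 670. Among the 36 genes, T3 against VC, CS+T3 against VC, CS+T3 against T3 and the interaction stayed at 0. Over all features they had 0, 3 to 7, 4 to 8 and 0 to 36 calls. The medians of all 36 genes ranged from -0.09 to -0.02, from -0.13 to -0.05 and from 0.19 to 0.26 in the first 3 comparisons, and from 0.11 to 0.22 in the interaction.

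With the replicate number as a block, 3 genes were called in CS against T3 (8.33% beside 5.69% of all features). There were 3 in CS+T3 against CS (8.33% beside 1.09%), and the count in CS against VC remained 2 (5.56% beside 3.03%). Deviations of same-numbered arrays (33 pairs) had correlations from -0.407 to 0.324, median -0.027, with 9 over 0.1. Arrays of different number (165 pairs) had -0.302 to 0.391, median 0.007, with 46 over 0.1. These values cannot exclude that same-numbered birds shared a pen, room or day, on which the labels are silent.

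ATP5B in CS against T3 turned to 0.0186 when single spots replaced the average, since the spot with the most values was the one near 0. Of 239 alternative values of the called gene differences, 164 kept direction and call, 74 lost the call and 1 changed sign. Over fits without 1 array, 308 of 368 kept both and 60 lost the call. The causes of these losses were not tested. Many of these fits could not move the difference, since they left out an array of a group not compared or changed only the estimate of spread. The same holds for the counts of kept calls given for single genes. Leaving out ATP5F1AW, chosen after seeing the data, kept the sign of the complex V median in all 7 comparisons. Signal over background was not given, so how dim a spot was is unknown.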

Other observations

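Birds differed from one another within the vehicle group as well. In VC, replicate 5 had the highest value for 3 of the 8 tested complex V genes, and replicates 1 and 6 each had the lowest for 3. In CS, replicate 5 was highest for 4 of 8 and replicate 4 lowest for 5. In CS+T3, replicate 1, a realigned array with values for 7 of the 8 genes, was highest for 5. One of these was ATP5F1AZ, where its 0.69 came only from the spot that moved, whereas the other CS+T3 birds also had the other spot. On the spot that moved alone, CS+T3 replicate 4 read higher, at 0.82.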
